A study of Mus musculus with 13 samples.

Results

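The comparison described here set regulatory T (Treg) cells that had regained Foxp3 in inflamed mice (rescued Treg cells) against Treg cells that had always been able to express it in healthy mice (control Treg cells), across all genes with adequate counts. It used 6 of the 13 libraries of the series, 3 per group, and 14925 of the 24417 named genes in the count table could be tested. Rescued Treg cells came from male Foxp3LSL/y mice with Cd4creERT2. In these mice a stop cassette that carries a Thy1.1 reporter and is flanked by loxP sites silences a *Foxp3* allele that also encodes GFP. Control Treg cells came from healthy male Foxp3DTR-GFP/y littermates that carried the same Cd4creERT2. The tamoxifen-inducible Cre, expressed under *Cd4* control in any CD4+ cell, was thus shared by both groups. All mice were C57BL/6, received 4-hydroxytamoxifen (4-OHT) once on postnatal day 14 and were analysed on day 21, that is 7 days later. Cells were doubly sorted from spleen and lymph node as TCRβ+CD4+ Foxp3 reporter-positive cells, by a protocol that also gated out CD8+ and NK1.1+ cells, and those of rescued mice were in addition Thy1.1−. A further pair of libraries, the Treg "wannabes" of male Foxp3LSL/y Cd4wt mice (Thy1.1+ cells that transcribe the locus but make no Foxp3), entered the fit to help estimate the spread and appear in some plots, but were not part of the contrast. The *Foxp3* allele, the disease of the host, the late onset of Foxp3 and the transcription of the locus before it all differ between the groups at once. No library came from control-allele cells of an inflamed mouse, so these cannot be told apart here. The labels call the libraries replicates and the methods biological replicates. Neither says which animals were used or whether any were pooled, so p-values measure the spread between these samples.

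Foxp3 is the lineage-specifying transcription factor of Treg cells, the CD4+ T cells that restrain other lymphocytes, and mice without it develop fatal autoimmunity. In secondary lymphoid organs Treg cells are usually described along an axis from resting or central cells to effector cells. The former express *Tcf7* and *Ccr7* and recirculate through lymph nodes, and the latter express *Prdm1*, *Icos*, *Itgae*, *Gzmb* and *Il10* and enter inflamed tissue. Effector Treg cells often take up parts of the programme of the T helper response they restrain, such as *Tbx21* and *Cxcr3* in type 1 or *Gata3* and *Il1rl1* in type 2 inflammation.

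Library totals ran from 25556783 to 36659638 counts over the 8 male libraries, and *Cd3e*, *Cd4* and *Foxp3* were detected in all of them. The T cell gene *Cd3e* stood at 25284, 26954 and 25260.1 in the control and 24374, 25199 and 27137 in the rescued libraries, which overlap. None of the 13 tested T cell identity genes passed the test with edgeR, where 2 had an unadjusted p under 0.05, and none passed with DESeq2. Values quoted by library are normalized counts, that is, counts scaled to a common library size with TMM factors, and they are always given in the order of replicates 1, 2 and 3. Transcripts of other cells were scarce in both groups. Summed over a list, B cell genes reached 1566 to 1974 normalized counts in control and 1748 to 1868 in rescued libraries. Myeloid and granulocyte genes reached 310.3 to 423 and 339.9 to 559, with 23 of 27 of the latter under 50 in all 6 libraries and 3 at 0. No member of the B cell, myeloid, CD8 and natural killer, erythroid or thymocyte lists passed the test with edgeR. In that order, 0, 2, 6, 1 and 2 had an unadjusted p under 0.05, and 0, 1, 4, 1 and 0 passed with DESeq2. As in any bulk comparison, a smaller share of cells that express a gene and less RNA per cell cannot be told apart.

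At an adjusted p under 0.05 (edgeR's quasi-likelihood test, Benjamini-Hochberg adjusted over the 14925 genes), 214 genes were higher in rescued Treg cells (1.43% of those tested) and 129 were lower (0.864%). A gene was called a change, in either direction, only on that test. The shares of 1.43% and 0.864% are the background for the counts of every list below. Of the 214, 171 rose over 2-fold and 59 over 4-fold, with a median log2 fold change of 1.32; of the 129, 93 fell over 2-fold and 32 over 4-fold, with a median of −1.28. The median over all tested genes was −0.025. The 3 rescued and 3 control libraries did not overlap in any of these 343 genes, but they also did not overlap in 1892 tested genes with every rescued library above (12.7%) and 1721 with every rescued library below (11.5%). No single library carried the whole list. Among the 214 higher genes the highest value came from rescued replicate 1 in 101, replicate 2 in 33 and replicate 3 in 80. Among the 129 lower genes it came from control replicate 1 in 37, replicate 2 in 58 and replicate 3 in 34. Counts were nonetheless sensitive to single libraries. In 8 further fits that each left out 1 library, 44 of the 214 and 27 of the 129 genes stayed past the threshold every time. For most named genes the number of the 8 fits that kept the call is given. Genes that belong neither to the gene lists nor to the 20 largest rises or falls were named after their values were seen. The 2 fits without a wannabe library kept every call among the named genes, so a gene kept in 2 of 8 was lost whenever any 1 of the 6 Treg libraries was left out.

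**Figure D1:**
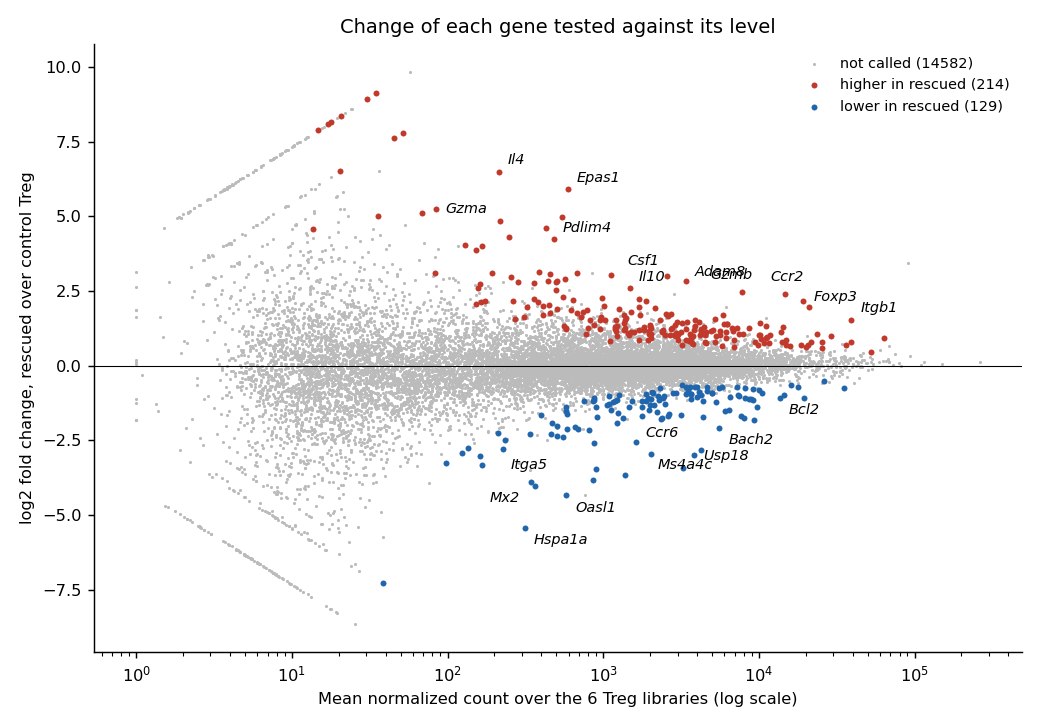
Log2 fold change of rescued over control Treg cells (y axis) against the mean normalized count over the 6 Treg libraries (x axis, log scale) for the 14925 genes tested. Red points are the 214 genes called higher, blue points the 129 called lower, and grey points the rest. *Il4*, *Epas1*, *Gzma*, *Pdlim4*, *Hspa1a*, *Oasl1* and *Mx2* stand farthest from 0 among the labelled points.

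The 5 genes given as markers of this comparison show the kind of change found. From here on, values in parentheses are the log2 fold change of rescued over control Treg cells, with its standard error after ± where given (n = 3 against 3), followed by the adjusted p or by the number of the 8 fits that kept the call. *Epas1* encodes HIF-2α, an oxygen-sensitive transcription factor (chr17:86753700-86833410, GRCm38, + strand). It went from 36.4, 8.19 and 14.2 normalized counts in the control libraries to 1363, 787 and 1358 in the rescued libraries, a log2 fold change of 5.92 ± 0.47 (edgeR adjusted p = 0.000393). Every rescued library lay more than an order of magnitude above every control library, and the call held in 8 of 8 fits. *Adam8*, a membrane-anchored metalloprotease of activated leukocytes (chr7:139978932-139992562, − strand), stood at 1052, 571 and 886 in the control and 6225, 5121 and 6603 in the rescued libraries (2.84 ± 0.23, edgeR adjusted p = 0.000393). *Bach2*, a repressor that keeps T cells in a resting state (chr4:32238804-32586108, + strand), moved the other way, from 8611, 8095 and 10207 to 1821, 2075 and 2479 (−2.08 ± 0.17, edgeR adjusted p = 0.000393). *Il10*, the suppressive cytokine (chr1:131019845-131024974, + strand), was read at 492, 427 and 333 in the control and 2115, 2682 and 2822 in the rescued libraries (2.60 ± 0.22, edgeR adjusted p = 0.0004). All of these were called in 8 of 8 fits and had no overlap between the groups. *Foxp3* itself (chrX:7573644-7595245, + strand) was at 5466, 7046 and 8282 in the control and 28404, 29736 and 36479.7 in the rescued libraries (2.18, 8 of 8), but it defined the sort and its alleles differ between the groups. It also shares 590 exonic bases with *Ccdc22* on the other strand (1.45, 7 of 8), whose reads cannot be told apart from those of *Foxp3* without strand information.

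**Figure D2:**
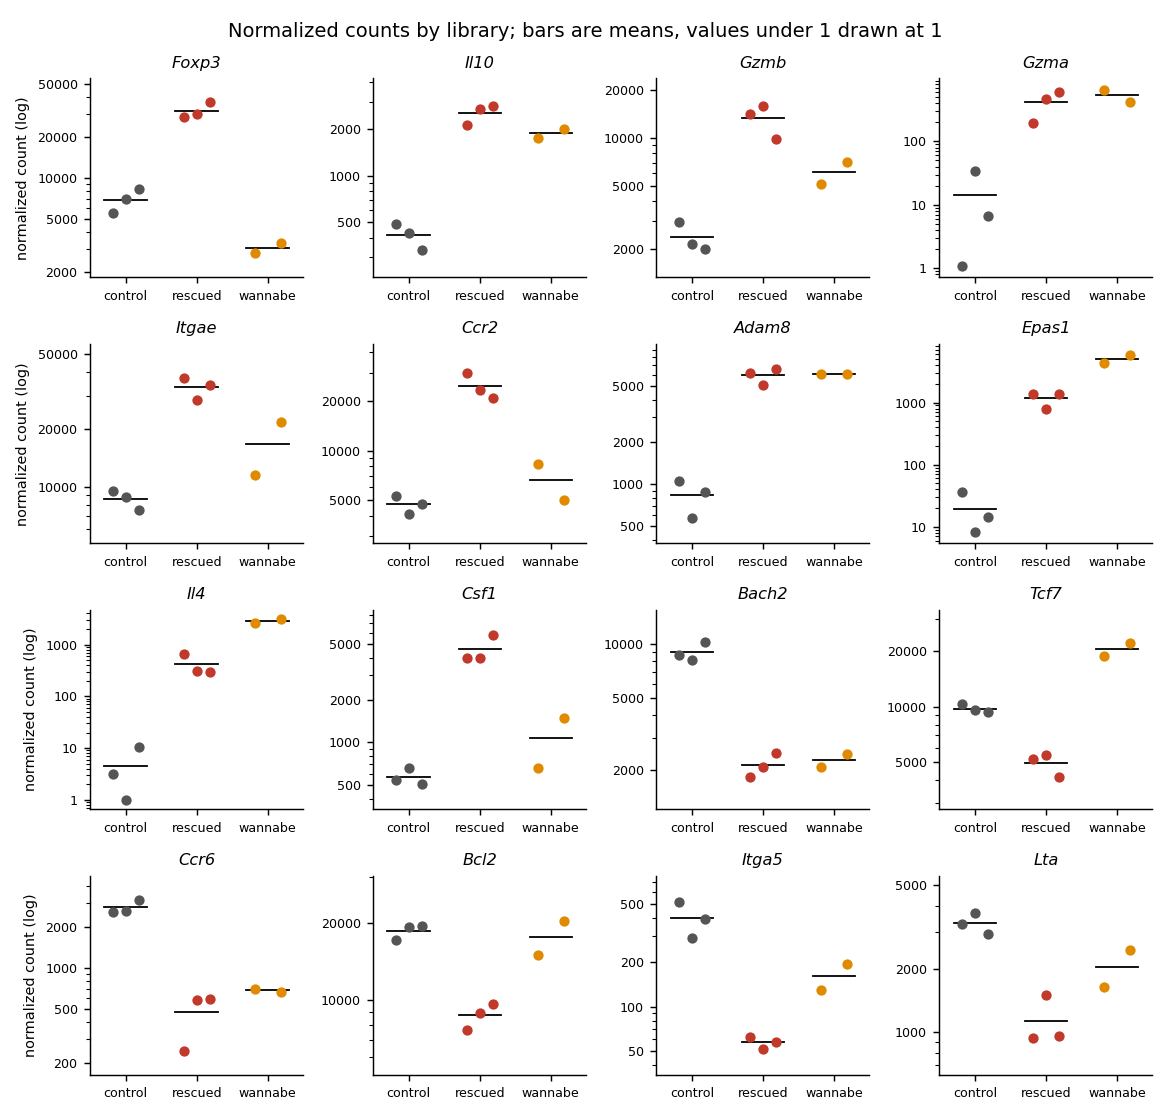
Normalized counts (log axes) of 16 genes in the 3 control, 3 rescued and 2 wannabe libraries; each point is a library and each bar a group mean. In every panel the 3 rescued points lie wholly above or wholly below the 3 control points, from *Epas1* and *Il4* with the widest gaps to *Tcf7* and *Bcl2* with narrow ones.

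Treg identity genes as a group did not move in one direction. Of 21 tested members, *Foxp3*, *Il10* and *Entpd1* (the ATP-hydrolysing ectoenzyme CD39, 0.99, called in 4 of 8) rose, and *Gpr83*, an orphan receptor of resting Treg cells, fell from 12833, 14077 and 9695 to 5716, 5647 and 5490.2 (−1.12 ± 0.23, edgeR adjusted p = 0.0276, 3 of 8). Over the list the median fold change was 0.096 on the log2 scale, beside −0.025 over all genes. Several defining genes gave values near the controls. *Nrp1*, a surface marker of thymus-derived Treg cells, stood at 16758, 17060.5 and 20299 in the control and 16301, 17875 and 19973 in the rescued libraries. *Tnfrsf18* (GITR) was read at 15992, 18444 and 17856 in the control and 15994, 19616 and 20306 in the rescued libraries, and the groups overlapped in both genes. *Il2ra*, the high-affinity IL-2 receptor chain, had lower values in all 3 rescued libraries, 11916, 14345 and 17695 beside 20364, 20618 and 20287 in the controls, and *Ctla4* higher ones, 29449.6, 28889 and 26302 beside 21559.6, 18991 and 24491, but neither passed the test (edgeR adjusted p = 0.142 and 0.187).

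Of 27 tested effector Treg genes 16 were called higher (beside 1.43% of all genes) and none lower, with a median of 1.27, and in 23 every rescued library exceeded every control library (beside 12.7%). The count ran from 9 to 15 when any 1 Treg library was left out, lowest without control replicate 2. Several members were named by the study from these same libraries, so the direction of the list is not independent evidence. *Itgae*, the αE chain (CD103) that binds E-cadherin on epithelium, rose from 9445, 8823 and 7576 to 37383, 28527 and 34458 (1.96 ± 0.22, edgeR adjusted p = 0.00199). *Id2*, an inhibitor of E-protein transcription factors, stood at 2102, 1704 and 1701 in the control and 5092, 6176 and 3869 in the rescued libraries (1.46 ± 0.19, edgeR adjusted p = 0.0042). *Il1rl1*, the IL-33 receptor ST2 of tissue Treg cells, was at 2712, 2200.5 and 2654 in the control and 5624, 5660.2 and 6572 in the rescued libraries (1.24 ± 0.16, edgeR adjusted p = 0.00389). The groups did not overlap in any of these, and the calls held in 8 of 8 fits. *Nfil3*, a basic leucine zipper factor, was at 195, 202 and 328 in the control and 3736, 819 and 1471 in the rescued libraries (3.05, 6 of 8), with rescued replicate 1 far above the other two. *Prdm1* (Blimp-1, 1.46, 4 of 8), *Klrg1* (1.27, 7 of 8), *Ahr* (the aryl hydrocarbon receptor, 1.22, 2 of 8) and *Fgl2* (1.41, 5 of 8) rose as well. *Fgl2* lies inside *Ccdc146* on the other strand (1.40, 4 of 8). They share no exonic base in GENCODE M21, yet the values of *Ccdc146* were close to those of *Fgl2*, at 3987, 2567 and 3798 in the control and 6137, 12750.0 and 8357 in the rescued libraries against 3932, 2525 and 3735 in the control and 6105, 12639 and 8373 in the rescued libraries. Both calls may rest on the same reads. *Tigit*, *Icos* and *Gzmb* kept their calls in 8 of 8 fits, while the inhibitory receptors *Lag3* (148, 354 and 269, then 495, 584 and 466) and *Havcr2* (249, 103 and 205, then 453, 137 and 597) did not pass the test.

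**Figure D3:**
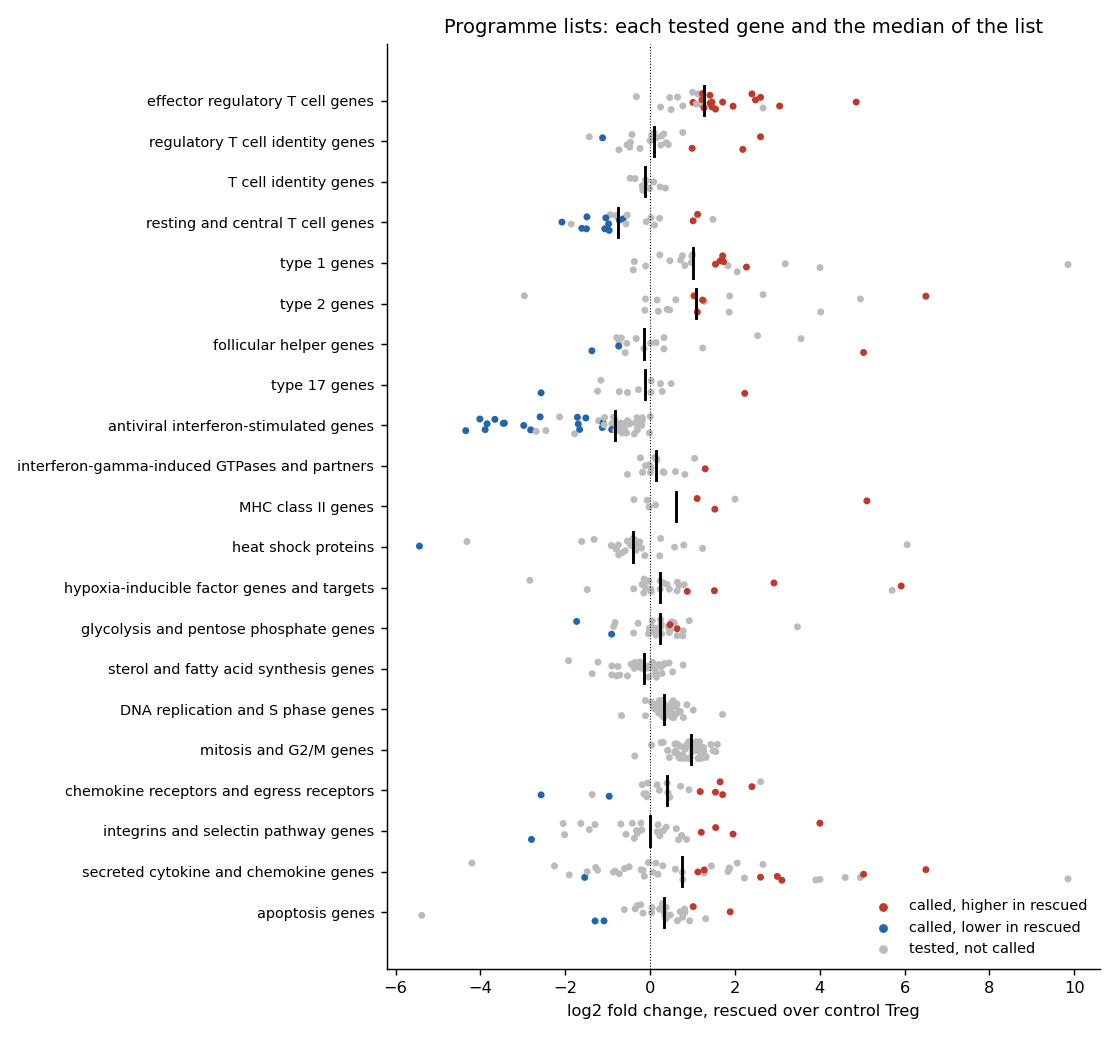
Log2 fold change of rescued over control Treg cells (x axis) for every tested member of 21 gene lists (rows). Red and blue points are called higher and lower, grey points are not called, and black bars are list medians. Among these 21 lists the medians lie highest for effector Treg genes (1.27) and lowest for antiviral genes (−0.83). Lists not drawn include the myeloid (2.23), CD8 and natural killer (2.22) and stromal (2.01) lists, with higher medians. The mitosis row is shifted to the right without a called gene.

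Of 22 tested resting and central T cell genes 10 were lower and 2 higher (beside 0.864% and 1.43% of all genes tested). The other members did not pass the test. The median was −0.77, and 4 to 8 were called lower and 0 to 2 higher when any 1 Treg library was left out, with the fewest lower without control replicate 1. *Foxp1*, a transcription factor that maintains naive T cells, fell from 26083, 25017 and 28372 to 11836, 11548 and 14550.3 (−1.07 ± 0.14, edgeR adjusted p = 0.00397). *Id3*, which restrains E proteins in resting T cells, fell from 10967, 9621 and 8043 to 3585, 4329 and 2217 (−1.50 ± 0.24, edgeR adjusted p = 0.0102). The fall in *Id3* and the rise in *Id2* thus ran in opposite directions in the same libraries. *Nsg2*, an endosomal vesicle protein, was nearly constant within each group, at 5769, 5225 and 5274 in the control and 2621, 2609.7 and 2670.1 in the rescued libraries (−1.04, 8 of 8). *Tcf7* (−0.98) was also kept in 8 of 8 fits. *Id3* held in 7, *Ly6c1* (−1.61) and *Ccr7* (−0.96) in 5, *Actn1* (−1.49) in 4, *Lef1* (−0.64) in 3 and the Tec kinase *Txk* (−0.73) in 2 of 8. *Satb1*, a chromatin organiser needed for Treg development, instead rose, at 9449, 7889 and 8947 in the control and 24104, 13242 and 19833 in the rescued libraries (1.12, 3 of 8). So did *Il7r*, the IL-7 receptor chain usually low on Treg cells, at 6399, 5590.4 and 7891 in the control and 16317, 10436 and 13421 in the rescued libraries (1.01, 4 of 8). *S1pr1*, the egress receptor, overlapped between the groups (−0.09), and *Klf2*, which drives *S1pr1*, was high only in rescued replicate 1 (5426, 931 and 938, beside 897, 926 and 789 in the controls).

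Among 53 tested lymphoid transcription factors, 11 were higher and 5 lower, beside the 1.43% and 0.864% of all genes. Leaving out 1 Treg library gave 4 to 8 higher and 4 to 5 lower, with the lowest higher count without control replicate 1 or 2. The nuclear receptor genes *Vdr* and *Rxra* were among those that rose. *Vdr*, the vitamin D receptor, went from 149, 48.2 and 17 to 470.0, 401 and 625 (2.81 ± 0.56, edgeR adjusted p = 0.0271, 5 of 8), and its dimer partner *Rxra* from 801, 571 and 865 to 1835, 1634 and 1543 (1.16, 2 of 8). *Runx2*, a Runt-domain factor, rose from 660.4, 709.8 and 1067 to 2859, 1709 and 3335 (1.70, 6 of 8). *Ikzf3* (Aiolos) rose too (0.97, 3 of 8), whereas its relative *Ikzf2* (Helios), with 32889.5, 24432 and 43832 in the control and 19522, 22234 and 33479 in the rescued libraries, did not pass the test. Of the factors that fell, *Lmo4*, a LIM-domain cofactor, was at 631, 631 and 431 in the control and 94.6, 112 and 139.9 in the rescued libraries (−2.29 ± 0.33, edgeR adjusted p = 0.00802), and *Plagl1*, an imprinted zinc-finger gene, at 797, 886 and 732 in the control and 279.9, 133 and 180.3 in the rescued libraries (−2.02 ± 0.33, edgeR adjusted p = 0.0111). *Tox*, a nuclear factor of chronically stimulated and follicular T cells, fell from 14151, 10566 and 17095 to 4511, 5227 and 6422 (−1.37). The calls of *Lmo4*, *Plagl1* and *Tox* held in 8 of 8 fits. Outside the list, and named after their values were seen, *Rel*, the NF-κB subunit needed for Treg development, also fell (3293, 3323 and 3185, then 1461, 1894 and 1332, −1.07, 3 of 8). So did *Max*, the partner of Myc (−1.0, 2 of 8), and *Hdac9*, a class IIa histone deacetylase (777, 779 and 959, then 156, 151 and 186, −2.35, 8 of 8).

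The lists of the T helper programmes are given side by side, and differences between them were not tested. Over all genes tested 1.43% were higher and 0.864% lower. For type 1, 5 of 21 tested members rose (*Tbx21*, *Nkg7*, *Cxcr3* and *Cxcr6* among them), none fell, and the median was 1.00; leaving out 1 Treg library gave 1 to 5, fewest without control replicate 3 or rescued replicate 2. *Tbx21*, which encodes T-bet, went from 279, 476 and 249 to 1164, 1699.8 and 1990.2 (2.27 ± 0.42, edgeR adjusted p = 0.0192, 4 of 8). *Ifng* had 103, 184 and 50.1 in the control and 359, 561 and 285 in the rescued libraries and did not pass (edgeR adjusted p = 0.0845). For type 2, 4 of 18 rose (*Il4*, *Gata3*, *Crlf2* and *Il1rl1*) and none fell. The median was 1.07, or 0.54 with floor values. For these, a group at or under 3 counts in every library was set to that floor. Genes at or under it in both groups were set to no change. *Gata3*, the type 2 master regulator, was at 8028, 6651 and 8330.5 in the control and 14264, 14707 and 18190.2 in the rescued libraries (1.03 ± 0.16, edgeR adjusted p = 0.00938, 8 of 8), and *Crlf2*, the receptor for thymic stromal lymphopoietin, at 1660.0, 1593 and 1255 in the control and 3225, 3222 and 3313 in the rescued libraries (1.11, 2 of 8). The cytokine *Il4* was near background in control cells, at 3.21, 0 and 10.4, and read at 660.0, 306 and 299.9 in rescued cells (6.50, 8 of 8). *Il5* was at 15.1, 5.17 and 0 in the rescued libraries and *Il13* was read in 1 of the 6 Treg libraries, and neither was called. Of 12 type 17 genes, *Ltb4r1* rose and *Ccr6* fell, and *Il17a* (0, 10.9 and 18.9 in the control and 12.3, 0 and 0 in the rescued libraries) did not pass the test. Of 17 follicular helper genes, *Il21* rose and *Tox* and *Il6st* (gp130, −0.74, 2 of 8) fell. *Bcl6* (−0.79), *Cxcr5* (−0.15) and *Pdcd1* (−0.55) did not pass.

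Secreted factors counted 7 higher and 1 lower of 43 tested (beside 1.43% and 0.864% of all genes tested). The called members include cytokines of myeloid and B cells. The list median was 0.76, or 0.30 with floor values for genes at or under 3 counts in every library of a group. Leaving out 1 Treg library gave list medians of 0.15 to 0.85 and 4 to 6 higher, fewest without control replicate 1 or rescued replicate 3. *Csf1*, the growth factor of macrophages, went from 544, 661 and 507 to 3947, 3979.9 and 5782 (3.00 ± 0.30, edgeR adjusted p = 0.00111), with narrow spread within each group and the call kept in 8 of 8 fits. *Tnfsf13b* (BAFF, a B cell survival factor) went from 34.2, 79.2 and 6.62 to 244, 365 and 433 (3.11, 4 of 8). *Il21*, which helps B cells, was close to background in the controls, 5.35, 0.91 and 0, and low but present in the rescued libraries, 55.8, 29.7 and 122 (5.03, 5 of 8). *Penk*, the precursor of enkephalins, rose from 3644, 4189 and 4883 to 8632, 12006 and 10159 (1.28 ± 0.20, edgeR adjusted p = 0.00964, 7 of 8), as did *Tnfsf11* (RANKL, 1.13, 3 of 8). The one secreted factor that fell was *Lta*, lymphotoxin α, which organises lymphoid tissue, from 3260.1, 3689 and 2935 to 939.9, 1496 and 962 (−1.54 ± 0.24, edgeR adjusted p = 0.00964, 8 of 8). *Bmp7*, a TGF-β family ligand outside the list, was read at 338, 366 and 509.7 in the control and 2192, 1015 and 1679 in the rescued libraries (2.01, 7 of 8).

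Antiviral interferon-stimulated genes were lower in rescued than in control Treg cells. These genes are induced by type I and III interferons through the factor ISGF3, which contains STAT2 and IRF9 and binds the interferon-stimulated response element. Promoters were searched for one core of that element, GAAANNGAAA on either strand (TTTCNNTTTC when read on the other strand). Those below belong to some of the called members of the antiviral list whose promoter held a match. Each line is a stretch of RefSeq promoter sequence, build GRCm38.p6, read 5′ to 3′ on the strand of the gene, with the match in capitals.
*Ifit1* (chr19:34640755-34640843, + strand): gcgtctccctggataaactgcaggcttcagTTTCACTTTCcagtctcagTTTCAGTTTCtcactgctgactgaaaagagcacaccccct
*Ifit3* (chr19:34583343-34583446, + strand): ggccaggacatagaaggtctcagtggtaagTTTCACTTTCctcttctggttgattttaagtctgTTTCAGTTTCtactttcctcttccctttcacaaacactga
*Rsad2* (chr12:26456533-26456602, − strand): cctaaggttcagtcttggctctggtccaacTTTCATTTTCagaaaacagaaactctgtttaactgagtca
*Ifi208* (chr1:173673577-173673646, + strand): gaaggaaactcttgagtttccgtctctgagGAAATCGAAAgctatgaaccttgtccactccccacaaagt
*Trim30a* (chr7:104465194-104465259, − strand): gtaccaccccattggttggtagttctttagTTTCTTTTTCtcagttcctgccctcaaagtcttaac
The first match begins 104 bases before the RefSeq gene start in *Ifit1*, 156 in *Ifit3*, 120 in *Rsad2*, 58 in *Ifi208* and 36 in *Trim30a*; *Ifit1* and *Ifit3* hold 2 matches each, and the *Ifit3b* window has the same letters as that of *Ifit3*. Of the 14925 tested genes 11460 had a promoter entry, and 425 of these (3.71%) held the core in the 300 bases from 250 before to 50 after the start. The antiviral list held it in 22 of 42 promoters. Among called genes it was in 8 of 163 that rose and 16 of 105 that fell, and, leaving the list out, in 9 of 93 that fell: *Apol9b*, *BC147527*, *Ddx60*, *Gpr18*, *Ifit1bl1*, *Nsg2*, *Trim12a*, *Trim12c* and *Trim34a*. Of the list's called members with an entry, *Oasl1*, *Oasl2*, *Irf7*, *Xaf1* and *Herc6* had no match in this window.

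Of the 56 tested antiviral genes 17 were lower (beside 0.864% of all genes tested) and none higher, with a median of −0.83. Of the 56 fold changes 55 were negative. Every rescued library lay below every control library in 34 (beside 11.5% of all genes tested). The proteins of the OAS family, which sense double-stranded RNA, and the Mx GTPases, which trap viral nucleocapsids, were among the widest falls. *Oasl1* went from 328, 2419.8 and 550.4 to 64.3, 36.2 and 60.7 (−4.35 ± 0.73, edgeR adjusted p = 0.016, 5 of 8), and *Oasl2* from 661, 3289 and 900.3 to 124, 81.4 and 132 (−3.84, 8 of 8). *Mx2*, annotated as a polymorphic pseudogene on GRCm38, fell from 280.4, 1265 and 517 to 51.1, 49.1 and 27.6 (−4.01 ± 0.57, edgeR adjusted p = 0.00684, 8 of 8). The IFIT proteins bind foreign RNA: *Ifit1* fell from 3639, 12705 and 5819 to 869.9, 986 and 1293 (−2.82 ± 0.39, edgeR adjusted p = 0.00579, 8 of 8) and *Ifit3* from 1255, 13376 and 3186 to 551, 479.5 and 617 (−3.44, 5 of 8). *Usp18*, the enzyme that removes ISG15 and dampens the receptor, fell from 3237, 12499 and 4687 to 633, 1043 and 917 (−2.98 ± 0.45, edgeR adjusted p = 0.00938, 8 of 8). In each of these genes control replicate 2 was the highest library and the other controls still lay above all rescued ones. *Oas2* (−3.89, 5 of 8), *Ifit3b* (−3.66, 4 of 8), *Rsad2* (viperin, −3.46, 5 of 8), *Mx1* (−2.59, 4 of 8), *Slfn5* (−1.72, 7 of 8), *Irf7* (−1.69, 3 of 8), *Rtp4* (−1.66, 6 of 8), *Ifi208* (−1.52, 8 of 8), *Xaf1* (−1.13, 3 of 8), *Herc6* (−1.11, 3 of 8) and *Trim30a* (−0.91, 2 of 8) make up the 17. Summed over the list, normalized counts were 220300, 399000 and 271000 in the control and 147200, 201800 and 205400 in the rescued libraries. Without control replicate 2 the median was −0.62 and 9 genes of the list were called lower, and over the fits without 1 Treg library 7 to 17 were, not in each case among these 17. *Ifit3* and *Ifit3b*, *Ifit1* and *Ifit1bl1* (−1.81, 3 of 8), and *Trim12a* and *Trim12c* (−0.96, 3 of 8, and −0.90, 3 of 8) are close copies whose reads may have been shared, and *Slfn5* overlaps *Slfn5os* (−1.77, 6 of 8) over 559 exonic bases. The transducers *Stat2* (−0.90) and *Irf9* (−0.61, 11245, 12852 and 9916, then 6651, 7469.8 and 8211) had negative fold changes and did not pass the test. *Isg15* narrowly missed the threshold (−1.78, edgeR adjusted p = 0.0505).

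**Figure D4:**
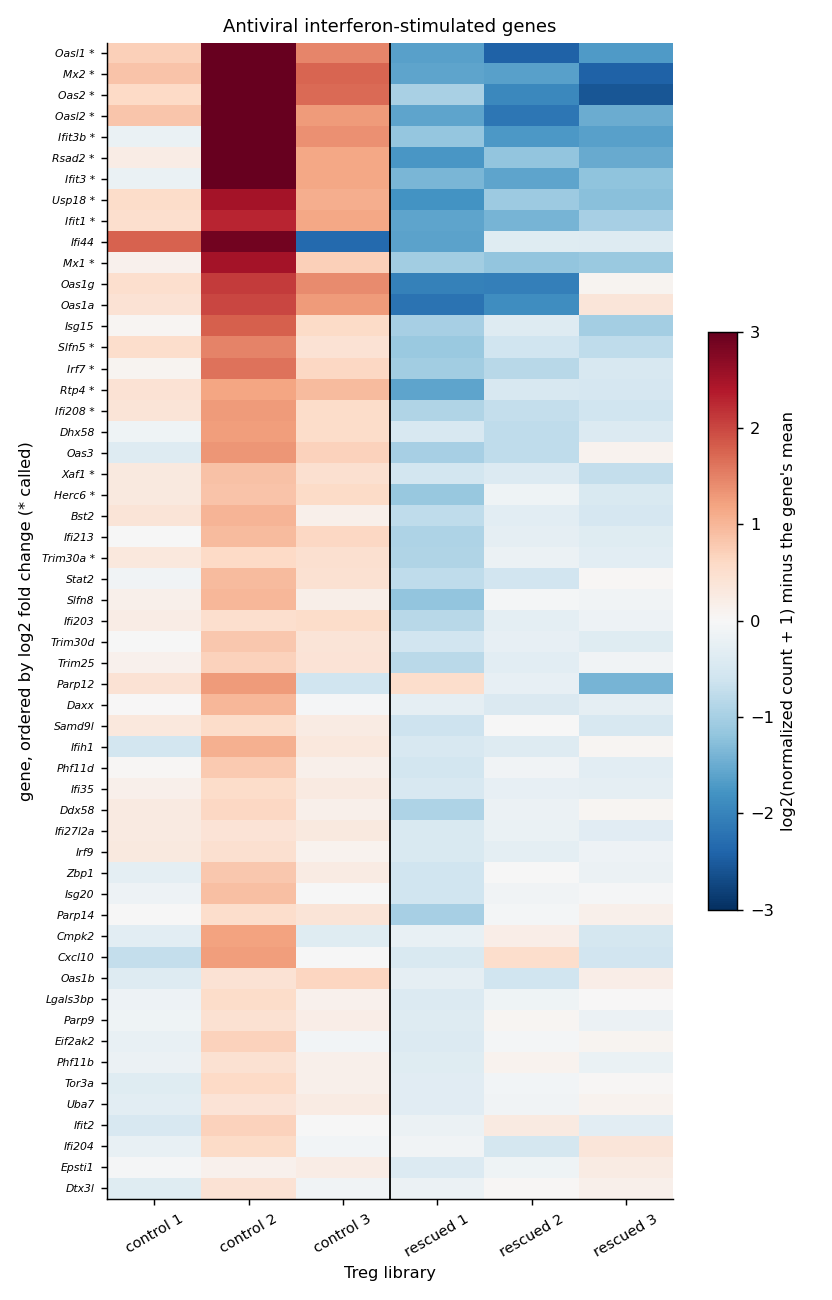
Level of 55 of the 56 tested antiviral genes (rows, ordered by fold change) in the 6 Treg libraries (columns), as log2(normalized count + 1) minus the mean of the gene over the 6 libraries, with colours ending at −3 and 3. Asterisks mark the 17 called genes; control replicate 2 is the reddest column and the rescued columns are blue in nearly all of the upper rows, fading to mixed colours at the bottom.

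Of 16 tested interferon-γ-induced GTPases and partners only *Ly6a* (Sca-1) passed the test, and it rose, from 6601, 10276 and 7806 to 16583, 22738 and 21434 (1.30 ± 0.26, edgeR adjusted p = 0.0252, 4 of 8). The list median was 0.13, and −0.08 to 0.36 when any 1 Treg library was left out. *Irgm1* (6913, 12779.6 and 10086 in the control and 7413, 12264 and 9726 in the rescued libraries) and *Irf1* (0.16) overlapped between the groups, and *Iigp1* had 2509.8, 7856 and 6511 in the control and 7673, 16202 and 11069 in the rescued libraries without passing (edgeR adjusted p = 0.183). Its neighbours *F830016B08Rik* and *Gm4841* are not in the list but are 2 of the 20 largest rises, and RefSeq gives them the GTPase family synonyms Ifgga4 and Ifgga3. *F830016B08Rik* went from 37.5, 119 and 135 to 312, 1052 and 1076 (3.06, 3 of 8). *Gm4841* went from 31, 155 and 181 to 454, 1291 and 915 (2.86, 3 of 8). A further neighbour, *Gm4951* (synonym Ifgga2), was called higher too, at 118, 271 and 293 in the control and 452, 1206 and 1506 in the rescued libraries (2.21). Reads may have been shared among these relatives. That the antiviral and interferon-γ lists differ was not itself tested. None of 16 class I antigen presentation genes passed with edgeR, at an unadjusted p under 0.05 or with DESeq2. Of 8 tested class II genes 3 rose (beside 1.43% of all genes tested). *Cd74*, the invariant chain, went from 2403, 1747 and 1825 to 5818, 5718 and 5691 (1.53 ± 0.17, edgeR adjusted p = 0.00152, 8 of 8), with the rescued libraries nearly equal. *H2-DMa* went from 1404, 2306 and 1861 to 3707, 4722 and 3595 (1.11, 3 of 8), and *H2-Aa* from 0, 10.9 and 0 to 251, 84 and 67.2 (5.11, 3 of 8). *Cd74* and *H2-Aa* are also high in B cells and dendritic cells. The summed B cell markers overlapped between the groups as given above. Of 9 tested B cell genes 3 had positive and 6 negative fold changes. *Cd79b* did not overlap, at 715 to 979 in control and 1049 to 1246 in rescued libraries, and was not called. The myeloid markers that were higher without being called are given beside *Lilrb4a*. Of 7 tested dendritic cell genes 4 had positive and 3 negative fold changes, with a median of 0.47 that ran from −0.41 to 0.74 when any 1 Treg library was left out, and the only one called was *Ccr7*, which fell. *Flt3* was at 0 to 1.82 in control and 0 to 23.9 in rescued libraries, *Clec9a*, *Siglech*, *Cd209a* and *Clec10a* were at 0 in all 6 libraries and *Itgax* at most 7.76.

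Of the heat shock proteins 1 was called, the inducible Hsp70 gene *Hspa1a*. *Hspa1a* was read at 1603, 125 and 116 in the control and 11.3, 19.4 and 12 in the rescued libraries (−5.44 ± 1.11, edgeR adjusted p = 0.0291, 4 of 8), and its near-identical neighbour *Hspa1b* at 3981, 127 and 275 in the control and 53.9, 111 and 56.1 in the rescued libraries, which did not pass (edgeR adjusted p = 0.0711). Control replicate 1 held most of the signal in both, although the other controls also lay above every rescued library. Leaving out 1 library moved the value of *Hspa1a* between −5.93 and −3.08, and its call was lost without control replicate 1 or without any 1 of the rescued libraries. DESeq2 gave it no adjusted p. Of 27 heat shock genes no other was called: *Dnajb1* (6312, 6054 and 5240.0 in the control and 4814, 5545 and 4261 in the rescued libraries), *Hspa8* (−0.33) and *Hsph1* (−0.65) did not pass the test. The median over the list was −0.41, and −0.18 without control replicate 1. The *Hspa1a* promoter window held no heat shock element of the searched form (GAANNTTCNNGAA or TTCNNGAANNTTC), which 65 of the 11460 promoters (0.567%) and 5 of 21 of the heat shock list contained. No member of the 29 unfolded protein and integrated stress response genes passed the test with edgeR (5 had an unadjusted p under 0.05, 3 passed with DESeq2). *Hspa5* (BiP) stood at 27989, 23890.3 and 20969.5 in the control and 21802, 24642 and 20752 in the rescued libraries and *Xbp1* at 4298, 4149 and 3638 in the control and 6405, 6197 and 5452 in the rescued libraries (0.58, edgeR adjusted p = 0.137). Of 29 immediate early genes *Ier3* alone was called, at 101, 91 and 86.1 in the control and 641, 702 and 537 in the rescued libraries (2.76 ± 0.27, edgeR adjusted p = 0.000882, 8 of 8), while *Fos* (3039.6, 1039 and 909 in the control and 4505, 3415 and 862 in the rescued libraries) varied as much within the groups as between them. *Nr4a1*, a reporter of T cell receptor signalling, had lower values in all rescued libraries, 3803, 5010.1 and 3569.9 beside 6509, 7269 and 6659, without passing (edgeR adjusted p = 0.0855).

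Of 26 hypoxia-inducible factor genes and targets 4 were called, all higher (beside 1.43% of all genes tested): *Epas1*, *Hif1a*, *Arnt2* and *Egln3*. *Hif1a* stood at 11408, 9534 and 10525 in the control and 18668, 20059.6 and 19035 in the rescued libraries (0.88 ± 0.15, edgeR adjusted p = 0.014, 6 of 8). *Arnt2* rose from 149.8, 70.1 and 177 to 967, 754 and 1284 (2.92 ± 0.46, edgeR adjusted p = 0.0102, 7 of 8), and *Egln3*, a prolyl hydroxylase that marks HIF-α for destruction and is itself a HIF target, from 684, 434 and 762 to 1899, 1567 and 1913 (1.52 ± 0.24, edgeR adjusted p = 0.0108, 8 of 8). *Slc2a1*, the glucose transporter (0.45), and *Ldha* (0.24) did not pass, and *Vegfa* was close to background in every library (11.8, 14.6 and 3.78 in the control and 10.4, 0 and 0 in the rescued libraries). Of 32 glycolysis and pentose phosphate genes, *Aldoa* (0.64, 2 of 8) and *Pkm* (0.47, 2 of 8) rose and *Eno3* (−1.73) and *Ldhb* (−0.91, 2 of 8) fell, but with any 1 Treg library left out 0 were called higher and 0 to 1 lower. *Eno3*, the muscle-type enolase, changed most, from 1732, 1254 and 1199 to 292, 583 and 386 (3 of 8). Of 22 amino acid transporters the glutamine carrier *Slc1a5* rose (4703, 5422 and 5249, then 14764, 7611 and 9763, 1.06, 3 of 8). None of 35 sterol and fatty acid synthesis genes passed with edgeR (3 had an unadjusted p under 0.05, and with DESeq2 1 was higher and 1 lower). *Abca1*, the cholesterol exporter, lies outside the list and rose from 777, 1299 and 1478 to 3943, 3222 and 3111 (1.53, 8 of 8).

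Genes of mitosis and DNA replication had mostly positive fold changes and no call. Of 54 mitosis and G2/M genes 53 had positive fold changes, with a median of 0.95. In 13 the groups did not overlap, with the rescued libraries higher (beside 12.7% of all genes tested). None passed the test (20 had an unadjusted p under 0.05, 5 passed with DESeq2). With the replicate number as a block in the fit 8 were called higher and the median was 1.15, but whether these numbers pair the samples is not known. Without a filter on low counts 3 were called higher, and with any 1 Treg library left out 0 were. Summed over the list, the libraries gave 70520, 40840 and 101000 normalized counts in control and 171200, 95850 and 105500 in rescued cells. Rescued replicate 2 thus lay below control replicate 3, and rescued replicate 1 was the highest of the 6. *Mki67* showed the same order, with 1256, 468 and 2582 in the control and 4510.5, 2449 and 2789 in the rescued libraries (1.18 ± 0.52, edgeR adjusted p = 0.294), and so did *Cdk1* with 664, 269 and 1063 in the control and 2309, 1003 and 1078 in the rescued libraries (1.14). The median over the list ran from 0.57 to 1.55 when any 1 Treg library was left out. Of 48 DNA replication and S phase genes 45 were positive with a median of 0.33 (0.14 without control replicate 2 and up to 0.53 without control replicate 3), and none was called (10 had an unadjusted p under 0.05, 1 passed with DESeq2). *Mcm2* (7089.5, 5724 and 6822 in the control and 8024, 6393 and 6449 in the rescued libraries) and *Pcna* (5136, 3326 and 4828 in the control and 5878, 4763 and 3822 in the rescued libraries) overlapped between the groups. Among 16 cell cycle inhibitors *Cdkn1a* (p21) rose, from 94.2, 172 and 140.0 to 512, 324 and 380.0 (1.58 ± 0.31, edgeR adjusted p = 0.0238, 4 of 8).

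**Figure D5:**
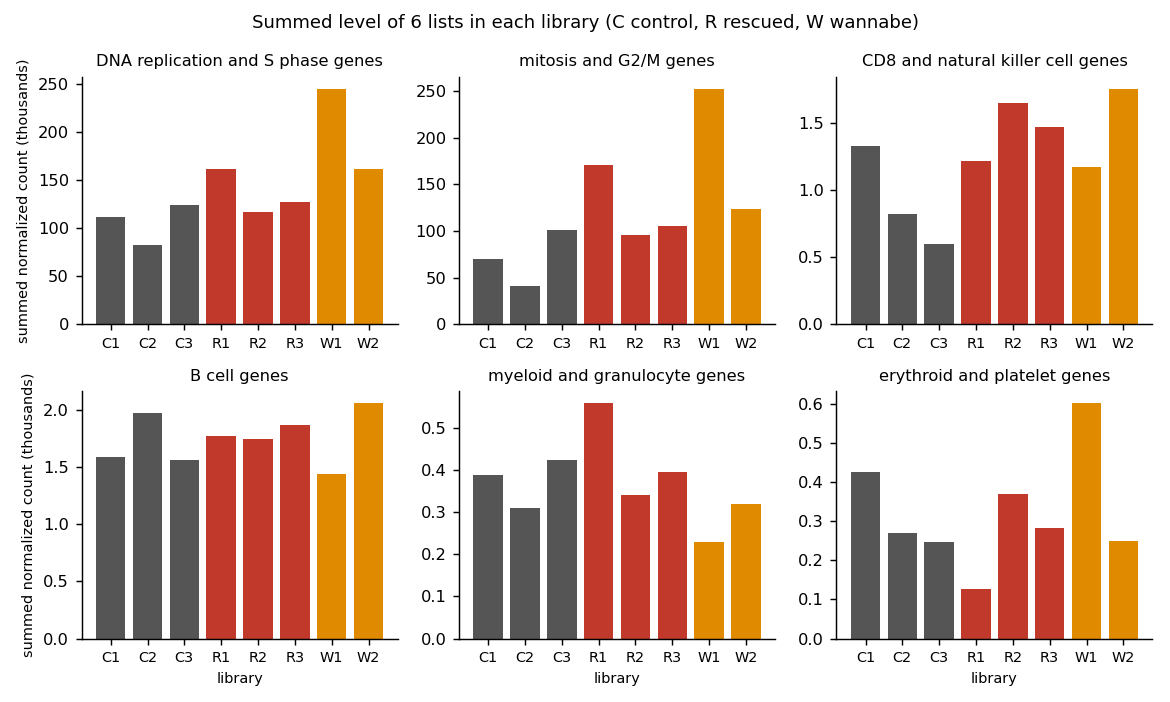
Summed normalized counts (y axes from 0, scaled as labelled) of 6 gene lists in each control (C), rescued (R) and wannabe (W) library. Mitosis genes range from 40840 to 101000 in control and from 95850 to 171200 in rescued libraries, so the groups overlap, as they do for the S phase list and for the 4 lists of other cell types, which reach at most 2060 counts.

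Receptors for chemotaxis and tissue entry changed in both directions. Of 21 chemokine and egress receptors 5 rose, among them *Ccr2*, *Cxcr3*, *Cxcr6* and *Gpr183*, and *Ccr6* and *Ccr7* fell. Over all genes tested the shares were 1.43% and 0.864%. Leaving out 1 Treg library gave 2 to 5 higher, fewest without control replicate 3, and 1 to 2 lower. *Ccr2*, a receptor for monocyte-attracting chemokines, was at 5274, 4082 and 4702 in the control and 29764, 23570.3 and 20989 in the rescued libraries (2.40 ± 0.22, edgeR adjusted p = 0.000517, 8 of 8). *Ccr6*, the receptor for CCL20, fell from 2573, 2639 and 3184 to 246, 580.4 and 589 (−2.57 ± 0.31, edgeR adjusted p = 0.00289, 8 of 8), with no overlap. *Cxcr6* went from 1572, 1191 and 1028 to 3726, 5097 and 3094 (1.65, 8 of 8) and lies within *Fyco1* on the other strand (0.81, 4 of 8), sharing no exonic base with it. *Gpr183*, which follows oxysterols, rose as well (1.18, 7 of 8), and so did *Cxcr3* (1.71, 3 of 8). *Ltb4r1*, the receptor for leukotriene B4, rose from 567, 577 and 653 to 1874, 3537 and 3034 (2.23 ± 0.27, edgeR adjusted p = 0.00289, 8 of 8). *Nmur1*, the receptor for the neuropeptide neuromedin U, rose from 103, 74.6 and 146 to 621, 690.2 and 1005 (2.84 ± 0.34, edgeR adjusted p = 0.00289, 8 of 8). *F2r*, the thrombin receptor (1.16, 8 of 8), rose as well. *Ptger4*, a receptor for prostaglandin E2 (1.12, 2 of 8), and *Hrh4*, one for histamine (2.17, 3 of 8), were higher too. *Ramp1*, a subunit of the receptor for calcitonin gene-related peptide, fell (2588, 2850.2 and 2309, then 953, 1343 and 666, −1.39, 4 of 8). These last 4 were named after their values were seen.

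Integrin chains changed in both directions. Of 28 integrin and selectin pathway genes *Itga1*, *Itgae*, *Itgb1* and *Fut7* rose and *Itga5* fell, with a median of −0.01. Leaving out 1 Treg library gave 2 to 3 higher and 1 lower. *Itgb1*, the β1 chain shared by α1 and α5, went from 22614, 18711 and 18721 to 72692, 49138 and 53635 (1.55 ± 0.16, edgeR adjusted p = 0.00143, 8 of 8). *Itga1*, which pairs with β1 to bind collagen, went from 37.5, 19.1 and 1.89 to 189, 349 and 402 (4.00, 2 of 8), and *Itga5*, which pairs with β1 to bind fibronectin, from 513, 292 and 393 to 62.4, 51.7 and 58 (−2.80 ± 0.41, edgeR adjusted p = 0.0079, 8 of 8). *Fut7*, which builds selectin ligands, also rose (1.21, 3 of 8). In the matrix list of 26, *Adam8* and *Fn1* (fibronectin) rose and *Adamts6* fell (5930.4, 4746 and 7413, then 2089, 2857 and 3061, −1.18, 4 of 8). *Fn1* was almost absent from the controls, 1.07, 0.91 and 10.4, and low in the rescued libraries, 134, 101 and 259 (5.26, 7 of 8). Collagen transcripts of stromal cells moved with it without being called, *Col1a1* at 13.2 to 22.5 in control and 54.8 to 146 in rescued libraries and *Col1a2* at 0 to 3.64 and 27.1 to 54.3. *Lum* was at 0 and *Dcn* at most 23.6. The summed stromal and endothelial list, which is mostly *Pecam1* (−0.71, 3 of 8), was 8650 to 10200 and 5668 to 7069. Of its 7 tested genes 6 had positive fold changes, with a median of 2.01. In 3 the groups did not overlap, with the rescued libraries higher (beside 12.7% of all genes tested). These were *Col1a1*, *Col1a2* and *Epcam*, the last at 103 to 192 and 324 to 666. The part of stromal RNA in the *Fn1* value was not tested. Single genes of the actin cytoskeleton, put together after their values were seen, changed in both directions. *Actn1* (−1.49), *Cnn3* (−2.39) and *Evl* (−0.93, 3 of 8) fell. Among those that rose were *Zyx* (zyxin, 8135, 8030.2 and 7775, then 13928, 12913 and 14037, 0.77, 4 of 8), *Nck2* (1.32, 7 of 8) and the Rac activator *Prex1* (1.02, 3 of 8). *Pdlim4*, an actin-associated PDZ-LIM protein and one of the 20 largest rises, went from 50.3, 63.7 and 30.3 to 1355, 829.8 and 566 (4.25 ± 0.40, edgeR adjusted p = 0.000633, 8 of 8).

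Of 23 CD28 family and inhibitory receptor genes *Tigit*, *Klrg1* and *Icos* rose and *Cd96* and *Cd86* fell (3 and 2 genes, beside 1.43% and 0.864% of all genes tested). *Cd96*, which shares the ligand CD155 with TIGIT, went from 10112, 8262 and 7819.8 to 4209.8, 4691 and 3847 (−1.04 ± 0.16, edgeR adjusted p = 0.00954, 8 of 8), opposite in direction to *Tigit* (1.41). *Cd86*, a ligand of CD28 and CTLA4, went from 1508, 1878 and 2174 to 617, 495 and 743 (−1.58, 6 of 8). Of 17 TNF receptor superfamily members only *Fas* was called, and it fell, from 3314, 2981 and 4291 to 1268, 1579.5 and 1461 (−1.30 ± 0.19, edgeR adjusted p = 0.0079, 8 of 8). In the apoptosis list of 27, *Bcl2*, the survival factor, fell with *Fas*, from 17059, 19229 and 19388 to 7683, 8936 and 9615 (−1.09 ± 0.15, edgeR adjusted p = 0.00646, 8 of 8), while the protease *Casp1* (604, 425 and 592, then 1980.1, 2186 and 1836, 1.89, 8 of 8) was 1 of 2 members that rose. Of 31 cytokine receptor chains *Il1rl1*, *Il7r* and *Il10ra* (0.63, 2 of 8) rose and *Il6st* fell (9.68% and 3.23% of the list), so both *Il10* and a chain of its receptor were higher. Leaving out 1 Treg library gave 1 to 2 higher and 0 lower in that list. Of 24 negative regulators of cytokine and antigen receptor signalling only *Nfatc1* was called, a calcium-dependent transcription factor of antigen receptor signalling (11271, 13943 and 11607, then 20176, 17608 and 20439.8, 0.66, 2 of 8). Signalling genes outside the lists, named after their values were seen, included *Malt1*, the paracaspase linking the antigen receptor to NF-κB, from 2786, 2635 and 2472 to 9832, 6361 and 7083 (1.56 ± 0.21, edgeR adjusted p = 0.00435, 8 of 8). *Ndfip1*, an adaptor of Nedd4-family ubiquitin ligases, went from 15239, 15607 and 15154 to 39362, 31508 and 24801 (1.06, 6 of 8), and *Pik3ap1*, an adaptor for phosphoinositide 3-kinase and one of the 20 largest rises, from 59.9, 209 and 155 to 1462, 1082 and 1115 (3.10 ± 0.38, edgeR adjusted p = 0.00304, 8 of 8). *Tnip3*, a partner of the NF-κB inhibitor A20, rose from 32.1, 30 and 113 to 433, 460.2 and 466 (2.96, 3 of 8).

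Granule genes rose in part. Of 17 tested, *Gzma*, *Gzmb*, *Serpina3f*, *Nkg7* and *Srgn* were higher (beside 1.43% of all genes tested) and none lower. When any 1 Treg library was left out 1 to 4 were called higher, fewest without control replicate 3. *Serpina3f*, a serine protease inhibitor, went from 69.6, 87.4 and 79.4 to 274, 960.4 and 865 (3.15, 6 of 8), and *Nkg7*, a granule membrane protein, from 1256, 1475 and 1049.7 to 3342, 5229.8 and 3991 (1.73, 3 of 8). Of the granzymes, *Gzma* stood at 1.07, 34.6 and 6.62 in the control and 196, 470.5 and 594 in the rescued libraries (4.86, 6 of 8) and *Gzmb* at 2954, 2170.4 and 1996 in the control and 14175, 15829 and 9875 in the rescued libraries (2.48, 8 of 8). Natural killer and CD8 T cells also express these genes, and the sort gated out NK1.1+ and CD8+ cells. Their 13 markers summed to 599.6 to 1330 normalized counts in control and 1218 to 1649 in rescued libraries, and none of 11 tested was called. Most of that sum is *Cd8b1* and *Prf1*. Of the 11 tested markers 10 had positive fold changes, with a median of 2.22. In 4 the groups did not overlap, with the rescued libraries higher (beside 12.7% of all genes tested). *Klrb1c* was at 13.7 to 43.5 in control and 44.2 to 156 in rescued libraries, *Eomes* at 1.89 to 7.49 and 19.3 to 76.6, *Gzmk* at 0 to 16.4 and 28.4 to 60.7, and *Klrd1* at 0 to 6.62 and 7.36 to 15.5. *Cd8a* was at most 16.1, *Klra8* and *Klra4* were at 0 in all 6 libraries, and *Ncr1* was at 0 in the controls and 0 to 65.9 in the rescued libraries. Their part in the granule genes was not tested. Of 17 S100 and annexin genes *S100a6* (5348, 4051 and 4998, then 12279.5, 10138 and 8003, 1.08) and *S100a11* (1.00) rose, each called in 5 of 8 fits. In the plasma cell list *Txndc5*, an endoplasmic reticulum disulfide isomerase, rose (1.18, 3 of 8) beside *Prdm1*.

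Several of the widest rises belong to none of these programmes. *Lilrb4a* and *Lilr4b*, near-identical inhibitory receptors of the immunoglobulin superfamily, both rose. The first went from 6.42, 5.46 and 87 to 417, 1006 and 1739 (4.99, 5 of 8) and the other from 40.7, 15.5 and 43.5 to 337, 914 and 1207 (4.62, 8 of 8). Reads may have been divided between them. *Lilrb4a* is also high in myeloid cells, and some myeloid markers moved with it without being called. *Cd68* was at 7.49 to 22.8 in control and 101 to 168 in rescued libraries, *Tyrobp* at 0 to 4.55 and 11.3 to 65.9, and *Fcer1g* at 0 to 3.64 and 10.4 to 34.0. Over the 10 tested myeloid and granulocyte genes the median was 2.23, and 1.14 to 2.65 when any 1 Treg library was left out. It was 1.24 with floor values for genes at or under 3 counts in every library of a group. In this list 7 fold changes were positive. In 3 genes the groups did not overlap, with the rescued libraries higher (beside 12.7% of all genes tested). *Itgam*, at 107 to 341 in control and 53.0 to 201 in rescued libraries, had a negative fold change. Their part in the *Lilrb4a* value was not tested. *Dnase1l3*, a secreted DNase, went from 1.07, 32.8 and 36.9 to 652, 308 and 451 (4.30, 4 of 8). *Bcar3*, a Cas-binding adaptor (4.05, 3 of 8), and *Muc20*, a membrane mucin (3.87, 3 of 8), are also among the 20 largest rises. For some called genes rescued replicate 1 stood apart from the other rescued libraries, such as the kinase *Plk3*, with 82.4, 155 and 135 in the control and 1754, 411 and 458 in the rescued libraries (2.81, 4 of 8), *Efhd2* (6186, 2013 and 1959.8 in rescued cells, 1.92, 4 of 8) and *Pgp* (1733, 474 and 537, 2.29, 4 of 8), all named after their values were seen. Of the interferon-induced transmembrane genes, *Ifitm2* rose from 96.3, 235 and 158 to 953, 601 and 427 (2.01, 5 of 8), against the direction of the antiviral list. Some called genes had no more than the floor of 3 counts in any control library, and for them only a bound can be given: *Abhd15* was at least 35.0-fold higher, *Fam69c* at least 30.7-fold, *Prss30* at least 23.8-fold and *Ifitm1* at least 14.1-fold, with 10 such genes in all. In the other direction *Reep6* was at least 24.1-fold lower. Each bound is the mean of the other group divided by a chosen floor of 3 counts per library. Neither counting error nor the spread between libraries is included, and counts of amplified cDNA are not independent molecules.

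Among the widest falls outside the programmes, *Ms4a4c*, a four-span membrane protein, went from 2319, 5478 and 2903 to 439.7, 549 and 385 (−2.96 ± 0.32, edgeR adjusted p = 0.00151, 8 of 8), with control replicate 2 highest as in the antiviral genes. Its relatives *Ms4a4b* (−0.73, 3 of 8) and *Ms4a6b* (−0.50, 2 of 8) fell too, though *Ms4a6b* (edgeR adjusted p = 0.0493) kept its call in only 2 of the 7 other alternatives. *F13a1*, the A chain of coagulation factor XIII, went from 362, 341 and 165 to 40.7, 40.1 and 25.8 (−3.03, 3 of 8). *Dpt*, a matrix protein, went from 250.4, 129 and 324 to 23.6, 51.7 and 28.5 (−2.76, 2 of 8). The GTPase-activating protein gene *Arhgap20* (−2.48, 3 of 8) and *Cnn3*, an actin-binding calponin (−2.39, 4 of 8), fell too. The remaining members of the 20 largest falls are gene models that are not described here. Surface and sensor genes named after their values were seen also fell, *Treml2* from 3997, 4225 and 3633 to 1175, 1547 and 994 (−1.68 ± 0.20, edgeR adjusted p = 0.00289, 8 of 8). *Tlr7*, the endosomal RNA sensor, fell from 1248, 1353 and 757 to 372, 202 and 199 (−2.12, 6 of 8), as did *Cd72* (−1.53, 4 of 8) and *Cd38* (−1.28, 3 of 8). *Igf2r*, the clearance receptor for insulin-like growth factor 2, went from 10899, 13927 and 12325 to 3963, 3758 and 3424 (−1.74 ± 0.20, edgeR adjusted p = 0.00277, 8 of 8), and *Airn*, the antisense RNA that starts within it, fell as well (−1.76, 4 of 8). The genes overlap on chromosome 17 from 12741311 to 12769664, share no exonic base, and without strand information their intronic reads cannot be assigned. *Sesn1*, a stress-induced inhibitor of mTORC1 signalling, went from 13396, 11007 and 11132 to 4384, 5377 and 6844 (−1.10, 6 of 8).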

How the data were processed

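The authors doubly sorted cells into TRIzol, amplified 2 ng of RNA per sample with SMART-Seq v4, prepared libraries with KAPA Hyper Prep and sequenced them in pairs on a HiSeq instrument. The raw counts per gene deposited by the authors were made with STAR 2.7.3a on GRCm38, realignment with GATK and counting in R, and the notes of the submitters also name DESeq2 1.28.1. The annotation and the strand setting are not given in the sources used here. Of 24421 entries 4 had no name and were dropped, at most 0.00841% of a library.

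The counts were tested in R 4.3.3 with edgeR 4.0.16 (limma 3.58.1): TMM factors, filterByExpr, and a quasi-likelihood fit of the 3 control, 3 rescued and 2 male wannabe libraries, with the contrast rescued minus control and Benjamini-Hochberg adjustment, at 0.05. Pooling all 8 libraries gives more residual degrees of freedom than the 6 Treg libraries alone, and the common biological coefficient of variation was 0.51. The pooled fit nonetheless called fewer genes, 343 beside 580 from the 6 Treg libraries alone. Standard errors are the fold change divided by the square root of the F statistic. A floor of 3 counts per library sets bounds on folds and limits a library to 8.18e-06% to 1.17e-05% of its counts. In simulated data the test recovered 85 of 100 genes changed by 2 on the log2 scale and 92 of 100 changed by 3, with 9 false calls among the 14443 genes edgeR tested. DESeq2 recovered 90 and 95 of 100, with 43 false calls among 14925. DESeq2 1.42.0, other scalings and filters, the Treg libraries alone, a replicate block and fits without 1 library were alternatives.

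Genes named are the 20 largest rises and falls with a mean normalized count over 100 and no overlap, the 5 markers, called list members, and, where few were called, members described for their role. Others were named after their values were seen. The members and lists were chosen with earlier results of these data known. Most gene models without a role in their symbol are counted only. Positions come from GENCODE M21 on GRCm38, and promoters from RefSeq (GRCm38.p6), with an entry for 11460 of the 14925 tested genes. The mitochondrially encoded genes and the constant regions of the T cell receptor were not analysed here. A few list members are counted but not reported by name here.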

Additional observations from a re-analysis of the deposited data

How the results depend on the processing

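No called gene among those named changed direction under any alternative, but the number of calls depended on the settings. Genes called higher and lower numbered 742 and 453 with DESeq2, which shared 342 of the 343 calls and gave the other, *Hspa1a*, no adjusted p. They numbered 401 and 211 without a filter on low counts, 352 and 228 from the 6 Treg libraries alone, and 331 higher and 136 lower among genes with a mean normalized count over 100. DESeq2 size factors gave 219 and 125 and upper-quartile scaling 215 and 124, and no setting moved the median of all genes by more than 0.1. Leaving out 1 library gave 64 to 361 higher and 41 to 237 lower genes. The low ends were reached without control replicate 1 (64 higher) and without rescued replicate 1 (41 lower), and the high ends without a wannabe library, which left the other as the only one of its group and assumed to vary like the rest. Over the Treg libraries, 71 to 95 of the 174 named genes that were called lost the call in a given fit. Of these 174, 51 kept the call in all 8 of these fits, 22 in 6 or 7 and 101 in 5 or fewer, while 159 kept it in all 7 other alternatives. Neither labels nor methods say whether the replicate numbers pair the samples. Libraries of the same number deviated with correlations of 0.0844, 0.0606 and −0.019 between control and rescued cells. For different numbers the values ran from −0.13 to 0.0739. With 3 libraries per group these values cannot decide whether samples were paired. With the number as a replicate block 253 genes were higher and 173 lower, and 166 of the 174 stayed called (*Hspa1a* did not, edgeR adjusted p = 0.0506). Depth limits genes of low count, in which a group without reads allows only a bound.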

Other observations

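The share of genes called differed between chromosomes, and the difference was not tested. Over all placed genes 2.33% were called, beside 4.68% of 342 tested genes on chromosome 18 (15 higher, 1 lower), 4.47% of 492 on chromosome 19 (10 higher, 12 lower) and 0.897% of 780 on chromosome 8 (6 higher, 1 lower). Chromosome 18 carries the neighbouring and related *F830016B08Rik* and *Gm4841*. Chromosome 19 carries the neighbours *Ifit1*, *Ifit3*, *Ifit3b* and *Ifit1bl1* and the MS4A genes *Ms4a4b*, *Ms4a4c* and *Ms4a6b*, and neighbours of one family are not independent counts.

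In all 7 pairs of called genes that overlap, the genes lie on opposite strands and moved in the same direction, among them *Slfn5* with *Slfn5os*, *Evl* with *Degs2* and *Igf2r* with *Airn*. The median GC content of transcripts was 51.2% for genes that rose, 48.3% for genes that fell and 49.3% for all genes tested, and median transcript lengths were 3241, 3328 and 3277 bases. Their part in the calls was not tested.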
